A study of Mus musculus with 6 samples.

Results

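The proteasome genes of the mouse growth plate are described here across 3 genotypes. The members were the genes whose array probes, matched through RefSeq accessions, carry a symbol of the Psm families a to g followed by a number. This rule matched 50 symbols and 61 probes. Psmc3ip, a recombination factor, and Psme3ip1, a protein that binds the proteasome activator encoded by Psme3, match by name only, which left 48 subunit, activator, inhibitor and assembly genes with 59 probes. Of these, 47 genes were among the 19118 genes tested. The exception was Psmb11, the catalytic subunit particular to the thymic cortex, whose probe was not well above background on both arrays of any genotype.

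The growth plate is the cartilage through which long bones lengthen, and the study asks what the ER stress sensor ATF6 does there. Growth plate tissue of the tibia was cut out with a laser microdissector from untreated male C57BL/6J mice aged 4 weeks. The groups were ATF6aKO (2 arrays, labelled as lacking ATF6a, the product of Atf6), ATF6bKO (2 arrays, labelled as lacking ATF6b, the product of Atf6b) and WT (2 arrays). The labels give no details of the alleles. Nor do they say whether a genotype's arrays are of different mice, so the p-values below cover the spread between these arrays alone, which may be technical.

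The proteasome is the barrel-shaped protease that degrades proteins marked with ubiquitin, including misfolded proteins pulled back out of the ER. Its 20S core is a stack of rings, with alpha subunits guarding the entrance and beta subunits doing the cutting, and its 19S cap has a base, whose ATPases unfold the substrate, and a lid, which removes ubiquitin. Growth plate chondrocytes secrete collagen and other matrix proteins in large amounts, and the ER of such cells disposes of faulty chains through this protease. Interferon replaces the 3 catalytic beta subunits by the immunoproteasome subunits Psmb8, Psmb9 and Psmb10, which shape peptides for antigen presentation.

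All 4 knockout arrays were on 1 slide scanned in 2 channels, and both WT arrays were on another slide scanned in 1 channel. The knockout values are of the red channel, and the WT values are of that single channel, the green one. Slide, scan, channel and genotype therefore cannot be told apart wherever WT is the control. Only ATF6aKO against ATF6bKO lies within a slide. Between 86.9% and 96.7% of spots per array were well above background. Atf6 measured 7.07 and 6.97 on the ATF6aKO arrays, 6.91 and 7.01 on the ATF6bKO arrays, and 7.05 and 7.28 on the WT arrays (normalised log2 intensity, the scale of all levels below). Atf6b measured 8.92 and 8.48 on the ATF6aKO arrays, 8.77 and 8.41 on the ATF6bKO arrays, and 9.06 and 9.19 on the WT arrays. Neither gene passed the threshold in any comparison, and since the deleted part is not given, these probes check nothing certain. Of 14 chondrocyte markers, 12 were higher and 1 was lower in ATF6aKO than in WT. In ATF6bKO 8 were higher and 2 lower than in WT. Beside these and the marker counts below, 20.3% of all genes were higher and 22.3% lower in ATF6aKO, and 17.3% and 20.3% in ATF6bKO. Sox9, the chondrocyte master regulator, was not well above background on either WT array. The summed linear level of the 14 chondrocyte markers was 114520 and 136920 on the ATF6aKO arrays, 70074 and 32077 on the ATF6bKO arrays, and 18738 and 24160 on the WT arrays. The 6 osteoblast markers tested summed to 92526 on WT replicate 1 but to 2340 on WT replicate 2, beside 2445 to 7640 on the knockout arrays, and the 7 erythroid markers to 31395 and 5936 on the WT arrays beside 1272 to 1562 on the knockout arrays. WT replicate 1 therefore stands apart in its bone and red cell markers. Of 15 leukocyte markers 6 were lower in each knockout than in WT, while 1 was higher in ATF6aKO and 3 were higher in ATF6bKO; their summed level was 17182 and 12268, 15761 and 15014, and 13689 and 11394 on the ATF6aKO, ATF6bKO and WT arrays. Of 8 endothelial markers, Pecam1, Kdr and Plvap were lower in each knockout than in WT and Flt1 was higher in ATF6bKO; their summed level was 1949 to 2365 on the knockout arrays and 4099 and 4429 on the WT arrays. Of 8 skeletal muscle markers, 2 were higher and 2 lower in each knockout, with Tnni2 8.49-fold higher in ATF6aKO; their summed level was 2546 to 4242 on the knockout arrays and 1786 and 2163 on the WT arrays. The part of these cell types in the proteasome results was not tested.

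Proteasome genes differed from WT in both directions in the ATF6aKO growth plate. Of the 47 tested, 13 were higher and 7 were lower past the threshold of 0.05 on the adjusted p (limma fit over all 6 arrays, Benjamini-Hochberg over all genes), beside 42.7% of all genes tested past it, 20.3% higher and 22.3% lower. The 20 called members are thus a share near that of all genes. In ATF6bKO against WT 7 were higher and 9 were lower, beside 37.6% of all genes, 17.3% higher and 20.3% lower. Psmb5 is counted as higher in both knockouts by its brighter probe, although its dimmer probe was lower in both. At an unadjusted p under 0.05 there were 25 members in ATF6aKO, beside 52.2% of all genes, and 24 in ATF6bKO, beside 47.9%. The arrays did not overlap with WT for 26 members that were higher and 10 that were lower in ATF6aKO, beside 34.6% and 38.6% of all genes, and for 16 higher and 17 lower in ATF6bKO, beside 33.3% and 39.5%. The median log2 difference of the 47 genes was 0.28 for ATF6aKO minus WT and 0.01 for ATF6bKO minus WT, with medians over all genes of -0.03 and -0.05. Without ATF6bKO replicate 1, 2 members were higher and 6 lower in ATF6bKO than in WT, and without ATF6bKO replicate 2, 3 were higher and 5 lower; without WT replicate 1 the counts were 15 higher and 6 lower for ATF6aKO, and 8 higher and 6 lower for ATF6bKO. With arrays scaled to the 75th percentile in place of quantile normalisation, the medians of all genes shifted to 0.13 for ATF6aKO and 0.16 for ATF6bKO minus WT and the calls over all genes split into 5161 higher and 3599 lower for ATF6aKO, against 3885 and 4269 before, and into 4827 higher and 3052 lower for ATF6bKO, against 3312 and 3875 before. The members' median relative to all genes was then 0.24 and 0.04, against 0.31 and 0.06 before. The authors' deposited table follows the green channel of the knockout arrays and not the labelled one, and 54.2% to 59.1% of the green processed signals there are 1 or less, against 0% on the WT arrays. By its values 37 members were higher and 1 was lower than WT in each knockout. Of all 19118 genes, 6890 were higher and 2824 lower by its values in ATF6aKO, and 6962 higher and 2930 lower in ATF6bKO. Every member called lower below has the opposite sign there except Psmd9 in ATF6bKO, beside a median over all genes there of 0.85 in each knockout. In tissue such as this, fewer cells of a type and less RNA per cell cannot be told apart.

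**Figure D1:**
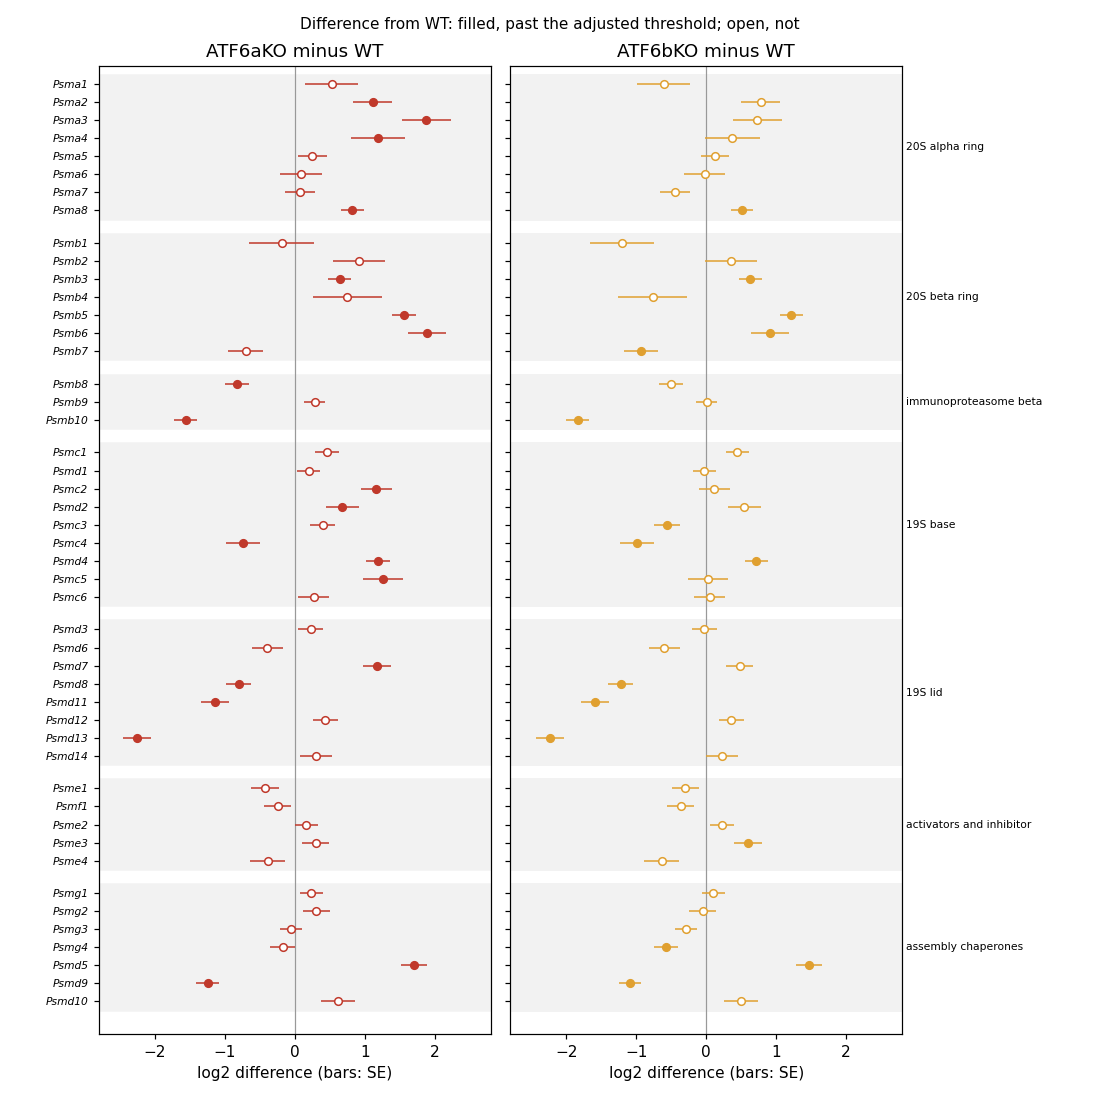
Log2 difference from WT of each of the 47 proteasome genes, ordered by role, for ATF6aKO (left) and ATF6bKO (right); bars are the SE of the limma fit (2 arrays per genotype), and filled points passed the adjusted threshold of 0.05. In ATF6aKO 13 filled points lie right of 0 and 7 left of it, and in ATF6bKO 7 and 9. The falls have a positive sign in the authors' deposited table except Psmd9 in ATF6bKO, though not all pass there. The median over all genes there is 0.85 in each knockout.

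Within the 20S alpha ring, 4 of 8 genes were higher in ATF6aKO than in WT and none was lower, with a median log2 difference of 0.67. Of all genes, 20.3% were higher and 22.3% lower in that comparison. Psma3 measured 9.24 and 10.33 on the ATF6aKO arrays, 8.90 and 8.37 on the ATF6bKO arrays, and 7.98 and 7.83 on the WT arrays. Every knockout array lay above both WT arrays, and Psma3 was 3.67-fold higher in ATF6aKO than in WT (log2 difference 1.88 ± 0.35, SE; adjusted p = 0.00508), while in ATF6bKO the difference of 0.73 ± 0.35 did not pass. Psma2 and Psma4, ring neighbours of the same gate, were 2.17-fold and 2.28-fold higher in ATF6aKO. Psma8, the alpha subunit of the testis form of the core, measured 7.5 and 7.74 on the ATF6aKO arrays, 7.27 and 7.34 on the ATF6bKO arrays, and 6.79 and 6.80 on the WT arrays. It was higher in both knockouts, by 0.82 ± 0.16 in ATF6aKO (adjusted p = 0.00636) and 0.51 ± 0.16 in ATF6bKO (adjusted p = 0.0415). No other alpha gene passed in ATF6bKO, and the call of Psma8 there did not hold without either ATF6bKO array or either WT array (highest adjusted p = 0.176), with the replicate block or with processed signals. The other alpha genes, Psma1, Psma5, Psma6 and Psma7, had differences of 0.07 to 0.53 in ATF6aKO and of -0.61 to 0.12 in ATF6bKO. Psma2 did not pass without ATF6aKO replicate 2 (0.71, adjusted p = 0.079), and Psma4 failed without ATF6aKO replicate 2, either ATF6bKO array or WT replicate 2; without ATF6aKO replicate 2, 2 alpha genes were higher in ATF6aKO. In ATF6bKO no alpha gene was higher without either ATF6bKO array or WT replicate 2, 2 were higher without WT replicate 1, and 3 without either ATF6aKO array.

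The 20S beta ring holds the cutting sites, of which Psmb5 carries the chymotrypsin-like, Psmb6 the caspase-like and Psmb7 the trypsin-like one. Psmb6 measured 9.34 and 9.89 on the ATF6aKO arrays, 8.76 and 8.51 on the ATF6bKO arrays, and 8.05 and 7.40 on the WT arrays. The genotypes did not overlap, with ATF6aKO highest, and Psmb6 was 3.72-fold higher in ATF6aKO than in WT (log2 difference 1.89 ± 0.27, adjusted p = 0.00203) and 1.88-fold higher in ATF6bKO (0.91 ± 0.27, adjusted p = 0.034). The call in ATF6bKO was lost without either ATF6bKO array and without WT replicate 2 (adjusted p up to 0.174). Psmb7 ran the other way, at 9.31 and 9.51 on the ATF6aKO arrays, 9.08 and 9.28 on the ATF6bKO arrays, and 10.47 and 9.75 on the WT arrays. Its log2 difference was -0.70 ± 0.25 in ATF6aKO, which did not pass (adjusted p = 0.0541; 0.00519 without WT replicate 2), and -0.93 ± 0.25 in ATF6bKO, which did (adjusted p = 0.0227). That call did not hold without either ATF6bKO array, without WT replicate 1 or with processed signals. The Psmb6 call in ATF6bKO was also lost with processed signals and with the replicate block. Psmb3, a structural beta subunit, measured 10.93 and 10.91 on the ATF6aKO arrays, 11.04 and 10.78 on the ATF6bKO arrays, and 10.23 and 10.33 on the WT arrays. It was about equally far above WT in both knockouts, 1.56-fold in ATF6aKO and 1.55-fold in ATF6bKO (adjusted p = 0.0181 and 0.0215), but did not pass without any 1 array of the knockout compared or without WT replicate 1. The remaining Psmb1, Psmb2 and Psmb4 did not pass in either comparison, and their WT arrays lay more than 1 log2 unit apart. Over all 6 arrays, 3 of 7 beta ring genes were higher and none lower in ATF6aKO, and 3 were higher and 1 lower in ATF6bKO. This is 42.9% and 57.1% called, beside 42.7% and 37.6% of all genes. Fewer of all genes were called in ATF6bKO when either of its arrays was left out. In ATF6bKO against WT, 1 beta ring gene was higher and none lower without either ATF6bKO array, 3 were higher and none lower without WT replicate 1, and 2 were higher and 3 lower without WT replicate 2.

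Psmb5 gave 2 answers. Its brighter probe measured 10.40 and 10.64 on the ATF6aKO arrays, 10.23 and 10.12 on the ATF6bKO arrays, and 9.0 and 8.92 on the WT arrays, so that it was 2.95-fold higher in ATF6aKO (log2 difference 1.56 ± 0.17, adjusted p = 0.000831) and 2.32-fold higher in ATF6bKO (1.22 ± 0.17, adjusted p = 0.00208). The dimmer probe for the same gene measured 8.68 and 8.95 on the ATF6aKO arrays, 8.55 and 8.78 on the ATF6bKO arrays, and 9.59 and 9.30 on the WT arrays. It was below WT in both knockouts past the threshold, by -0.63 ± 0.19 (adjusted p = 0.0327) and -0.78 ± 0.19 (adjusted p = 0.017) in a fit over all probes. No array of a knockout overlapped the WT arrays with either probe, and the probes pointed in opposite directions. With the mean over probes Psmb5 was 0.47 above WT in ATF6aKO (adjusted p = 0.0553) and 0.22 in ATF6bKO (adjusted p = 0.329), neither past the threshold, so no direction is assigned to this gene.

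Of the 3 interferon-inducible catalytic subunits tested, none was higher than WT in either knockout. Beside this, 20.3% of all genes were higher and 22.3% lower in ATF6aKO, and 17.3% and 20.3% in ATF6bKO. Psmb10, which takes the place of Psmb7, measured 8.58 and 8.35 on the ATF6aKO arrays, 8.17 and 8.20 on the ATF6bKO arrays, and 9.95 and 10.10 on the WT arrays. The knockouts lay more than 1 log2 unit below both WT arrays, and Psmb10 was 2.95-fold lower in ATF6aKO (log2 difference -1.56 ± 0.17, adjusted p = 0.000825) and 3.58-fold lower in ATF6bKO (-1.84 ± 0.17, adjusted p = 0.00075). Psmb8, the counterpart of Psmb5, measured 7.02 and 6.90 on the ATF6aKO arrays, 7.14 and 7.44 on the ATF6bKO arrays, and 7.78 and 7.80 on the WT arrays. It was 1.78-fold lower in ATF6aKO (-0.83 ± 0.17, adjusted p = 0.00748), and in ATF6bKO its difference of -0.50 ± 0.17 just missed the threshold (adjusted p = 0.0526). Psmb9, the counterpart of Psmb6, measured 8.79 and 8.81 on the ATF6aKO arrays, 8.49 and 8.56 on the ATF6bKO arrays, and 8.52 and 8.51 on the WT arrays. The ATF6aKO arrays were slightly above the rest without passing (0.28 ± 0.15, adjusted p = 0.163), and ATF6bKO differed from WT by 0.01 ± 0.15. For ATF6aKO the authors' deposited table has Psmb8 at 1.1 and Psmb10 at 1.55. Neither passed the threshold there (limma, adjusted p = 0.35 and 0.13), and the median over all genes there was 0.85. Leukocytes express these subunits constitutively, and the 15 leukocyte markers had a median log2 difference from WT of -0.51 in ATF6aKO and -0.47 in ATF6bKO. Of these markers 6 were lower in each knockout, while 1 was higher in ATF6aKO and 3 were higher in ATF6bKO. This is 46.7% called in ATF6aKO and 60% in ATF6bKO, beside 42.7% and 37.6% of all genes. The summed level of these markers was 17182 and 12268 on the ATF6aKO arrays, 15761 and 15014 on the ATF6bKO arrays, and 13689 and 11394 on the WT arrays. The part of leukocytes in the falls of Psmb8 and Psmb10 was not tested.

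Promoter sequence is shown for a pair of catalytic subunits because Psmb5, by its brighter probe, and Psmb6 were called higher in ATF6aKO, and for Psmd9 because it carries the same element as Psmb5 and Psmb6 but was called lower. RefSeq promoters (GRCm38.p6, a window mostly upstream of the start site) were found for 40 of the 48 members, 43 promoters in all. The element bound by NRF1 and NRF2, the factors that drive proteasome genes, was searched as TGACNNNGC on both strands. Capitals mark the matches below, which are that element in Psmb5 (chr14:54617999-54618077, minus strand), Psmb6 (chr11:70525313-70525356, plus strand) and Psmd9 (chr5:123228124-123228189, plus strand), each written 5′ to 3′ on the strand of its gene.
Psmb5: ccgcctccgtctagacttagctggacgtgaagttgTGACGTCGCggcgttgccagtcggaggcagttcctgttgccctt
Psmb6: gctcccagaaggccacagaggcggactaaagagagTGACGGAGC
Psmd9: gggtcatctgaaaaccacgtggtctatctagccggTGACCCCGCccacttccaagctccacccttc

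The match begins 47 bases before the start site in Psmb5, 9 in Psmb6 and 31 in Psmd9. TGACNNNGC was found in 6 of the 43 member promoters, which is 14.0%, beside 12.4% of all 32851 promoters of that length. It was in 2 of 12 promoters of members called higher in ATF6aKO, 1 of 7 of those called lower and 3 of 23 of those not called. The 2 are Psmb6 and Psmb5, and Psmb5 counts as higher by its brighter probe only. The core of the interferon-stimulated response element, GAAA and GAAA with 2 bases between, was found in 5, which is 11.6%, beside 3.44%, namely in Psmb3, Psmd4, Psmd9, Psme1 and Psmg4, and by the same split in 2 of 12, 1 of 7 and 2 of 23. The gamma-activated site, also an interferon element, was searched as TTCNNNGAA. It was found in 3, namely Psmb8, Psmd2 and Psmg1, which is 6.98%, beside 8.30%. By the same split it was in 1 of 12, 1 of 7 and 1 of 23. The 2 ER stress response elements of ATF6 targets (CCAAT and CCACG with 9 bases between, and ATTGG and CCACG with 1 base between) and TGACGTGG, an ATF6 and XBP1 element, were in none of the 43, beside 0.119%, 0.0365% and 0.676% of all promoters. The CCAAT box, searched as CCAAT, which is contained in the first of these elements and overlaps the reverse complement of the second, was found in 14 member promoters, 32.6% beside 37.4%; it was in 5 of 12 promoters of members called higher in ATF6aKO, in 0 of 7 of those called lower and in 8 of 23 of those not called. A match is a description of letters in this window only.

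The 19S base, the ring of ATPases Psmc1 to Psmc6 with the scaffolds Psmd1 and Psmd2 and the ubiquitin receptor Psmd4, had 4 genes higher and 1 lower in ATF6aKO than in WT, and 1 higher and 2 lower in ATF6bKO. Called in either direction were 55.6% and 33.3% of base genes, beside 42.7% and 37.6% of all genes. Psmc5 measured 10.36 and 10.90 on the ATF6aKO arrays, 9.61 and 9.17 on the ATF6bKO arrays, and 9.69 and 9.05 on the WT arrays. Only the ATF6aKO arrays stood above WT, by 1.26 ± 0.29 (2.40-fold, adjusted p = 0.0107; not past the threshold without ATF6aKO replicate 2, adjusted p = 0.0802), while ATF6bKO and WT overlapped. Psmc2, another of these ATPases, measured 8.48 and 9.08 on the ATF6aKO arrays, 7.84 and 7.62 on the ATF6bKO arrays, and 7.64 and 7.59 on the WT arrays. It was 2.24-fold higher in ATF6aKO than in WT (1.17 ± 0.22, adjusted p = 0.00548), its dimmer probe gave 1.0 and also passed, and in ATF6bKO neither probe passed. Psmd4 measured 8.94 and 9.10 on the ATF6aKO arrays, 8.66 and 8.43 on the ATF6bKO arrays, and 7.83 and 7.83 on the WT arrays. It was higher in both, 2.28-fold in ATF6aKO (adjusted p = 0.00181) and 1.64-fold in ATF6bKO (adjusted p = 0.0135, or 0.106 without ATF6bKO replicate 1). Psmd2 was 1.60-fold higher in ATF6aKO at an adjusted p of 0.0497 and did not pass without ATF6aKO replicate 2, either ATF6bKO array or WT replicate 2. Psmd2 also failed with processed signals, 75th percentile scaling, no background correction, no filter on dim probes or the replicate block. Psmc4 was the base gene called lower in both, by -0.74 ± 0.24 in ATF6aKO and -0.99 ± 0.24 in ATF6bKO, although not without either ATF6aKO array or WT replicate 1 in the first comparison (adjusted p up to 0.151) or without ATF6bKO replicate 2 in the second (0.0961). With processed signals Psmc4 passed in neither comparison. Psmc6 and Psmd1 passed in neither comparison. Psmc1 did not pass by its brighter probe, but its dimmer probe passed in ATF6aKO (0.61, adjusted p = 0.0219); with the mean over probes the base had 5 genes higher and 2 lower in ATF6aKO. Without ATF6aKO replicate 2 the base had 2 genes higher and none lower in ATF6aKO. In ATF6bKO it had none higher and 1 lower without ATF6bKO replicate 1, 1 higher and none lower without ATF6bKO replicate 2, 2 higher and 1 lower without WT replicate 1, and 1 higher and 1 lower without any of the other 3 arrays.

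In the 19S lid, which presents the deubiquitinase Psmd14, 3 of 8 genes were lower in each knockout, Psmd8, Psmd11 and Psmd13, and 1 was higher in ATF6aKO. Both comparisons share the WT arrays, and of all genes 22.3% were lower in ATF6aKO and 20.3% in ATF6bKO. Psmd13 measured 6.74 and 6.69 on the ATF6aKO arrays, 6.71 and 6.78 on the ATF6bKO arrays, and 9.23 and 8.72 on the WT arrays. The 4 knockout arrays lay close together and far below both WT arrays, and Psmd13 was 4.78-fold lower in ATF6aKO (log2 difference -2.26 ± 0.20, adjusted p = 0.000626) and 4.69-fold lower in ATF6bKO (-2.23 ± 0.20, adjusted p = 0.00075), the largest differences in both comparisons when the brightest probe stands for each gene. Its knockout levels were low, though well above background. Over the alternatives other than the authors' table the difference ran from -3.20 to -2.0 in ATF6aKO and from -3.19 to -1.97 in ATF6bKO. Psmd11 measured 7.38 and 7.62 on the ATF6aKO arrays, 7.13 and 6.98 on the ATF6bKO arrays, and 8.87 and 8.41 on the WT arrays. It was 2.21-fold lower in ATF6aKO (adjusted p = 0.00432) and 3.0-fold lower in ATF6bKO (adjusted p = 0.0017). Psmd8 measured 7.12 and 7.49 on the ATF6aKO arrays, 6.88 and 6.89 on the ATF6bKO arrays, and 8.11 and 8.10 on the WT arrays. It was 1.74-fold lower in ATF6aKO (adjusted p = 0.01) and 2.33-fold lower in ATF6bKO (adjusted p = 0.00252). In the authors' deposited table these 3 genes lay 1.74 to 2.6 above WT in ATF6aKO and 2.07 to 3.4 above it in ATF6bKO. The median over all genes there was 0.85 in each knockout. Psmd7, the partner with which Psmd14 forms a dimer, went the other way in ATF6aKO, 2.26-fold higher (1.17 ± 0.20, adjusted p = 0.00348), and did not pass in ATF6bKO (0.48 ± 0.20). Psmd14 itself, with 0.31 in ATF6aKO and 0.23 in ATF6bKO, and Psmd3 and Psmd6 passed in neither comparison. Psmd12 did not pass by its brighter probe, but its dimmer probe passed in both, at 0.94 in ATF6aKO (adjusted p = 0.00733) and 0.73 in ATF6bKO (adjusted p = 0.0216). With the mean over probes 2 lid genes were higher in ATF6aKO and 1 in ATF6bKO.

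**Figure D2:**
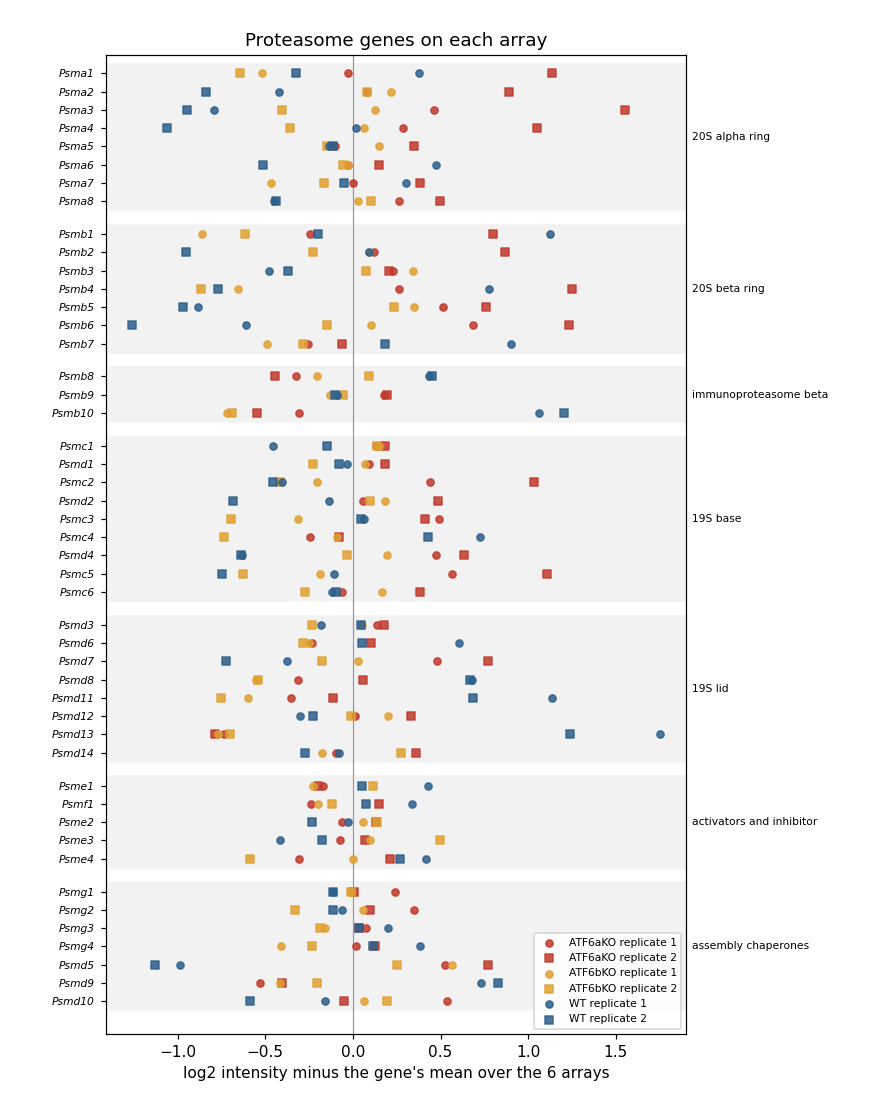
Normalised log2 intensity of the 47 proteasome genes on each of the 6 arrays, as the deviation from the gene's mean over the arrays, in groups by role; colours are genotypes and shapes are replicates. The WT arrays lie to the right of the knockouts for Psmb10, Psmd8, Psmd9, Psmd11 and Psmd13. They lie to the left for Psmb6, Psmd4 and Psmd5. For Psmb1, Psmb4 and Psma4 the 2 WT arrays lie far apart. In the authors' deposited table the first 5 have the opposite sign, except Psmd9 in ATF6bKO. The median over all genes there is 0.85 in each knockout.

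Among the activators, which open the core without ubiquitin, and the inhibitor Psmf1, no gene passed in ATF6aKO against WT, and Psme3, encoding the nuclear activator PA28 gamma, was higher in ATF6bKO. It measured 16.22 and 16.36 on the ATF6aKO arrays, 16.39 and 16.79 on the ATF6bKO arrays, and 15.88 and 16.12 on the WT arrays. The difference in ATF6bKO was 0.60 ± 0.20 (1.51-fold, adjusted p = 0.046), and leaving out any single array except WT replicate 2 ended the call (highest adjusted p = 0.26), as did leaving out the background correction. The authors' deposited table gives it as -3.1. The level of Psme3 was far above that of every other member, of which Psmb3 was the brightest, at 11.04 or less. Whether the probe measures Psme3 alone was not tested. Psme1 and Psme2, the interferon-inducible activator pair, passed in neither comparison with the brighter probe of each. The dimmer probe of Psme2 measured 9.56 and 9.49 on the ATF6aKO arrays, 9.46 and 9.54 on the ATF6bKO arrays, and 7.86 and 6.47 on the WT arrays, a difference of 2.36 ± 0.39 in ATF6aKO (adjusted p = 0.0033) and 2.33 ± 0.39 in ATF6bKO (adjusted p = 0.00416). The brighter one gave 0.16 and 0.23, and since Psme2 has a near-identical copy, Psme2b, the value of either probe is uncertain.

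Of 7 assembly chaperones, 1 was higher and 1 lower in ATF6aKO than in WT, and 1 was higher and 2 were lower in ATF6bKO. This is 28.6% and 42.9% called, beside 42.7% and 37.6% of all genes. Psmd5, which holds base ATPases together before the base is complete, measured 9.48 and 9.72 on the ATF6aKO arrays, 9.52 and 9.20 on the ATF6bKO arrays, and 7.96 and 7.82 on the WT arrays. All 4 knockout arrays lay more than 1 log2 unit above WT, and Psmd5 was 3.27-fold higher in ATF6aKO (log2 difference 1.71 ± 0.19, adjusted p = 0.000855) and 2.76-fold higher in ATF6bKO (1.47 ± 0.19, adjusted p = 0.00163). Psmd9, another base chaperone, measured 7.29 and 7.41 on the ATF6aKO arrays, 7.40 and 7.61 on the ATF6bKO arrays, and 8.55 and 8.64 on the WT arrays. It was 2.37-fold lower in ATF6aKO (-1.25 ± 0.16, adjusted p = 0.00152) and 2.13-fold lower in ATF6bKO (-1.09 ± 0.16, adjusted p = 0.00278). Its dimmer probe gave 0.16 ± 0.22 in ATF6aKO and 0.45 ± 0.22 in ATF6bKO, neither past the threshold, and with the mean over probes the call was lost in ATF6bKO (-0.32, adjusted p = 0.135) and kept in ATF6aKO (-0.54). Psmg4, a chaperone of the alpha ring, was not well above background on either ATF6bKO array and was at least 1.48-fold lower in ATF6bKO than in WT (adjusted p = 0.0357), a call that did not hold without either ATF6bKO array or WT replicate 1, nor with 75th percentile scaling (-0.20, adjusted p = 0.424). For such a bound the brighter genotype's mean is divided by the dim one's, taken per array as its own signal or the faintest signal that counts as well above background, whichever is higher. Psmg3, also not well above background in ATF6bKO, was at least 1.14-fold lower there without passing, and Psmg1, Psmg2 and Psmd10 passed in neither comparison. Without ATF6aKO replicate 2 or WT replicate 1, 2 chaperones were higher in ATF6aKO, and without either ATF6bKO array or WT replicate 1 only 1 was lower in ATF6bKO. Of the symbols that match by name only, Psmc3ip passed in neither comparison and Psme3ip1 was lower in ATF6aKO than in WT (-0.62 ± 0.18, adjusted p = 0.0287; not past the threshold without any 1 ATF6aKO array or WT replicate 2, where the highest adjusted p was 0.119).

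Psmb5 and Psme2 were not alone in having probes that disagreed. Of 10 member genes with 2 kept probes, both probes had the same sign in 5 for ATF6aKO minus WT and in 6 for ATF6bKO minus WT, beside 58.8% and 58.0% of the 4858 genes with 2 probes. Psmc3, a base ATPase, had a brighter probe at 10.14 and 10.07 on the ATF6aKO arrays, 9.34 and 8.96 on the ATF6bKO arrays, and 9.72 and 9.70 on the WT arrays, with differences from WT of 0.40 ± 0.18 in ATF6aKO (adjusted p = 0.111) and -0.56 ± 0.18 in ATF6bKO (adjusted p = 0.0435). That last call ended when any 1 of the 6 arrays was left out. Its dimmer probe was lower in both, by -1.46 ± 0.20 in ATF6aKO (adjusted p = 0.00189) and -1.25 ± 0.20 in ATF6bKO (adjusted p = 0.00385). Psma4, called higher in ATF6aKO by its brighter probe, was at -0.27 with the dimmer one, and the mean over its probes, 0.46, did not pass (adjusted p = 0.202). For Psmc2, Psmc1 and Psmd12 the differences of both probes were positive in both comparisons, not all of them past the threshold.

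**Figure D3:**
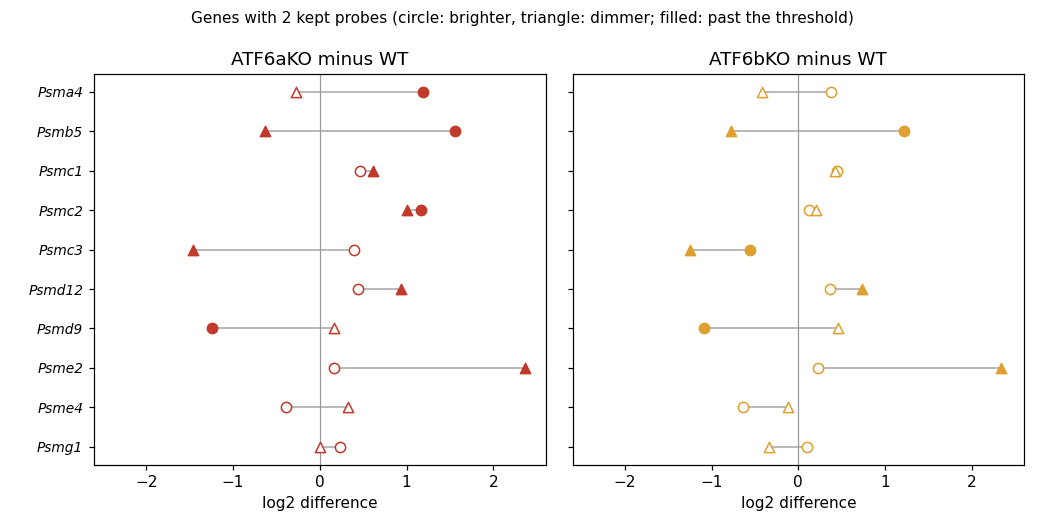
Log2 difference from WT of both kept probes of the 10 proteasome genes that have 2, for ATF6aKO (left) and ATF6bKO (right); circles are the brighter and triangles the dimmer probe, filled where past the adjusted threshold of 0.05, and a line joins the probes of a gene. The probes of Psmb5 are filled on opposite sides of 0 in both panels, those of Psmc2 are filled on the same side for ATF6aKO.

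ATF6aKO against ATF6bKO was the comparison made within 1 slide. Over 55393 probes, the ATF6aKO arrays correlated less with each other (r = 0.970) than with the ATF6bKO arrays (0.971 to 0.982). The ATF6bKO arrays correlated with each other at 0.988. No proteasome gene passed the adjusted threshold, beside 0.0% of all genes, and 11 of 47 had an unadjusted p under 0.05, beside 6.11% of all genes. The log2 difference was positive for 41 of 47 genes, with a median of 0.25 beside -0.005 over all genes. The arrays of the knockouts did not overlap, with ATF6aKO higher, for 28 of 47, beside 20.1% of all genes, and with ATF6aKO lower for 2, Psmb8 and Psme3, beside 16.9%. By role, all 8 alpha, all 7 beta and all 9 base genes were positive, with medians of 0.42, 0.56 and 0.25, as were 7 of 8 lid and 6 of 7 assembly genes, whereas by the authors' deposited values only 4 alpha, 4 beta, 3 base and 1 lid genes were, with 6 assembly genes. Without ATF6aKO replicate 2 the base had 6 of 9 positive genes and a median of 0.18, and the alpha and beta medians were 0.26 and 0.22. Without ATF6bKO replicate 2 the base had 7 of 9 positive genes and a median of 0.09. The base median was 0.44 without ATF6aKO replicate 1 and 0.57 without ATF6bKO replicate 1, and the alpha and beta medians without ATF6aKO replicate 1 were 0.72 and 0.94. The 5 activator and inhibitor genes had a median of -0.06. Without ATF6aKO replicate 2, 32 of 47 members were positive, with a median of 0.19, and the authors' deposited values gave 22, with a median of 0. Processed signals scaled to the 75th percentile gave a median of 0.47 and 42 positive genes. All 14 chondrocyte markers were positive too, with a median of 1.38, 13 of them without overlap and 12 at an unadjusted p under 0.05, and their part in the result was not tested.

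The genes of smallest p in this comparison were the base ATPases Psmc3, Psmc2 and Psmc5, whose values on each array are given above. All 3 were higher on both ATF6aKO arrays than on either ATF6bKO array, by 0.96 ± 0.18, 1.05 ± 0.22 and 1.24 ± 0.29, each with an adjusted p of 0.625. The second probe of Psmc2 gave 0.80, whereas that of Psmc3 gave -0.21. In the other direction the smallest p belonged to Psmb8, at -0.33 ± 0.17 (adjusted p = 0.874), Psme3, at -0.30 ± 0.20 (adjusted p = 0.902), and Psmd9, at -0.16. The widest difference by size was that of Psmb4, a structural beta subunit, at 8.52 and 9.51 on the ATF6aKO arrays and 7.60 and 7.40 on the ATF6bKO arrays (1.52 ± 0.50, adjusted p = 0.679).

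**Figure D4:**
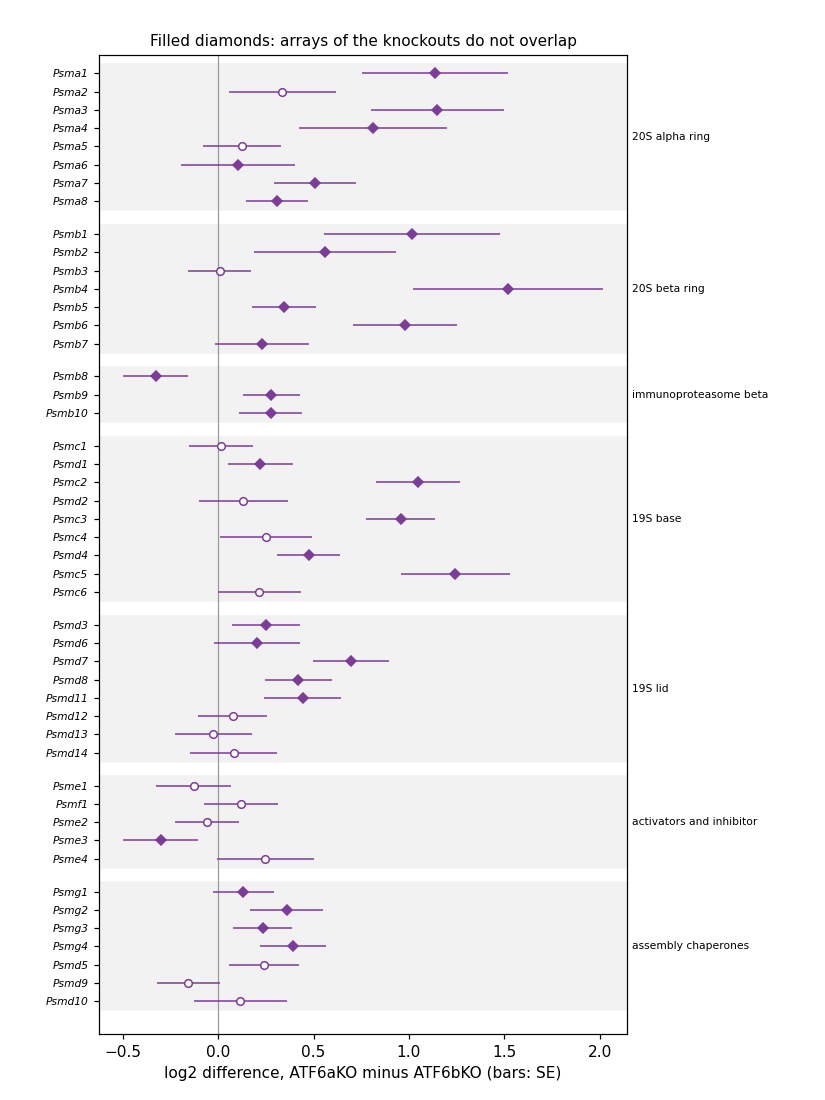
Log2 difference of ATF6aKO minus ATF6bKO for the 47 proteasome genes, ordered by role, with bars for the SE of the limma fit (2 arrays per genotype). Filled diamonds mark the 30 genes whose knockout arrays do not overlap, 28 right of 0 and 2 left of it, and none of the 47 passed the adjusted threshold.

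**Figure D5:**
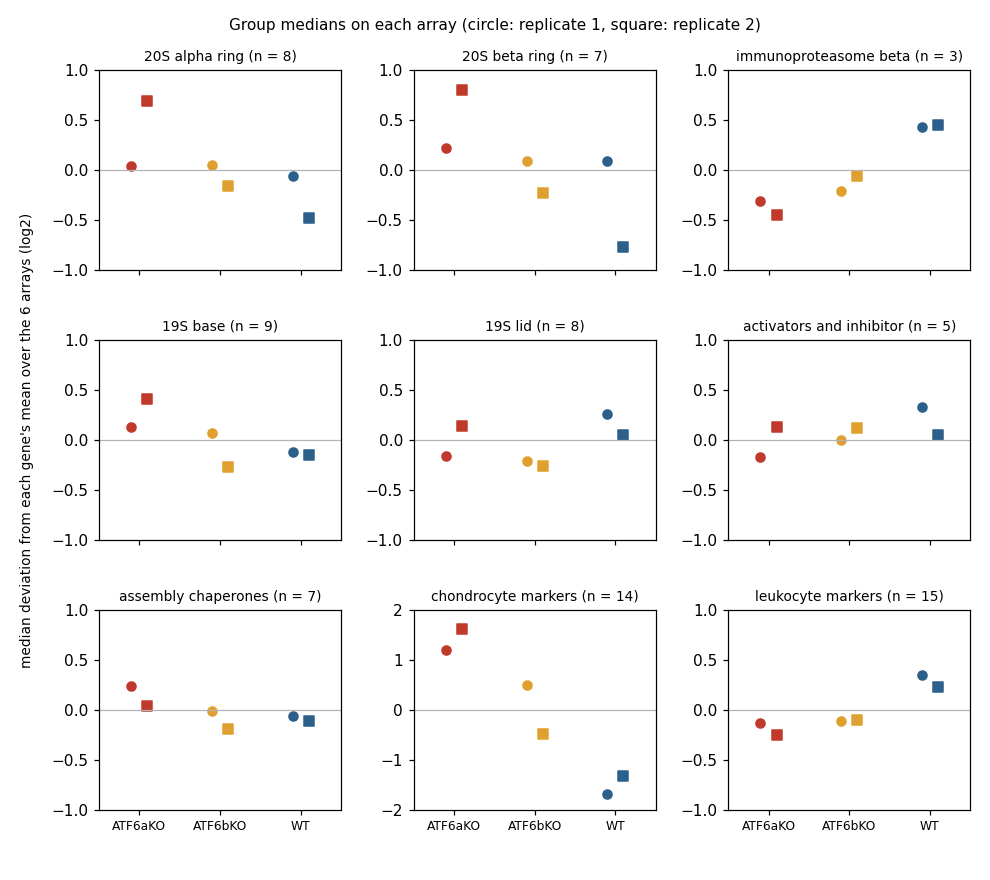
Median deviation of each role group, and of chondrocyte and leukocyte markers, from each gene's mean over the 6 arrays (log2), per array, with circles for replicate 1 and squares for replicate 2; the chondrocyte panel has a wider axis. ATF6aKO replicate 2 is the highest array for the alpha ring, beta ring, base and chondrocyte panels, and both WT arrays are highest in the immunoproteasome and leukocyte panels.

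Of the genes around the proteasome, 9 of 12 listed components and cofactors were tested, and 2 were higher and none lower in each knockout than in WT. This is 22.2% called, beside 42.7% of all genes in ATF6aKO and 37.6% in ATF6bKO. Pomp, the chaperone that matures the beta rings, measured 10.02 and 10.47 on the ATF6aKO arrays, 9.02 and 8.88 on the ATF6bKO arrays, and 8.41 and 8.10 on the WT arrays. The genotypes did not overlap, and Pomp was 3.96-fold higher in ATF6aKO (log2 difference 1.99 ± 0.21, adjusted p = 0.000812) and 1.62-fold higher in ATF6bKO (adjusted p = 0.0347, lost without either ATF6bKO array or WT replicate 2). Adrm1, a ubiquitin receptor of the cap, was 2.62-fold higher in ATF6aKO and 2.01-fold higher in ATF6bKO, the second not past the threshold without ATF6bKO replicate 1. Among 6 of 8 regulators of proteasome genes tested, Keap1, which restrains NRF2, was lower in both (-1.18 ± 0.24 and -1.29 ± 0.24), and Nfe2l1, which encodes NRF1, was lower in ATF6aKO (-0.84 ± 0.21, adjusted p = 0.0173), at -0.55 in ATF6bKO; without ATF6aKO replicate 2 neither passed in ATF6aKO, and none of the 6 was higher. Both Keap1 differences are 1.40 in the authors' deposited table, where the median over all genes was 0.85 in each knockout. Of the 6 regulators 33.3% were called in ATF6aKO and 16.7% in ATF6bKO, beside 42.7% and 37.6% of all genes.

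Of 14 of 15 ubiquitin and shuttle genes tested, 3 were higher and 2 lower in each knockout. This is 35.7% called, beside 42.7% of all genes in ATF6aKO and 37.6% in ATF6bKO. Rps27a, a fusion of ubiquitin with a ribosomal protein, was 5.28-fold higher in ATF6aKO and 3.0-fold higher in ATF6bKO, and Rad23b, a shuttle that carries ubiquitinated proteins to the cap, 2.08-fold and 1.59-fold. Uba6, an enzyme that activates ubiquitin, was 1.78-fold higher in ATF6aKO and 1.66-fold higher in ATF6bKO, and Nploc4, a cofactor of the VCP segregase, was 1.83-fold lower in ATF6aKO and 1.57-fold lower in ATF6bKO. The polyubiquitin gene Ubb measured 10.79 and 10.87 on the ATF6aKO arrays, 10.20 and 10.11 on the ATF6bKO arrays, and 14.47 and 12.54 on the WT arrays. It was 6.38-fold lower in ATF6aKO (adjusted p = 0.00614) and 10.2-fold lower in ATF6bKO (adjusted p = 0.00316), but with the mean over probes the difference was -0.56 in ATF6aKO, no longer past the threshold, and the authors' deposited table has 2.55. The calls in ATF6bKO of Rps27a, Rad23b, Uba6 and Nploc4 did not hold without either ATF6bKO array, nor that of Rad23b without either WT array, nor that of Nploc4 without WT replicate 2. Of 11 genes that act with the immunoproteasome in antigen presentation, 10 were tested. Called in either direction were 20% of these in ATF6aKO and 40% in ATF6bKO, beside 42.7% and 37.6% of all genes. Nlrc5, the activator of MHC class I genes, was 3.77-fold lower in ATF6aKO (-1.91 ± 0.17, adjusted p = 0.000626) and 3.18-fold lower in ATF6bKO (-1.67 ± 0.17, adjusted p = 0.000948), past the threshold under all 14 alternatives other than the authors' deposited table and of the same sign there. Irf1, the interferon response factor, was 2.01-fold higher in ATF6aKO and 2.11-fold higher in ATF6bKO, but at 0.11 and 0.23 with the mean over probes and below WT in the authors' deposited table. Irf8 was higher in ATF6bKO (0.68) and Tapbp, a chaperone of MHC class I, was lower (-0.64), neither call holding without ATF6bKO replicate 1. The Irf8 call also ended without WT replicate 2. The Tapbp call also ended without ATF6bKO replicate 2 or WT replicate 1. Processed signals, 75th percentile scaling, no background correction and the replicate block ended it too. The knockouts did not differ in either gene past the threshold.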

How the data were processed

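RNA of microdissected growth plate was amplified, labelled as Cy5 cDNA and hybridised to Agilent mouse arrays. The authors deposited spot intensity values from the scanner, and the submitters' processing notes name Agilent Feature Extraction 10.7.1.1. The knockout scans hold 2 channels and the WT scans 1. The red channel of the knockout arrays, which the Cy5 label points to, was used. For the WT arrays the single channel, the green one, was used. The authors deposited a table of log2 values, whose constants and centring are unknown; its column medians lie between -0.5 and 0.227, and its differences follow the green channel (r of at least 0.992).

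Median spot and background intensities were corrected with normexp (offset 50), taken to log2 and quantile normalised in limma 3.58.1 (R 4.3.3). Control spots and 288 flagged probes were left out. A probe was kept if some genotype had it well above background on each of its arrays, and the brightest stood for its gene, of 26576 probes matched to 20141 symbols by RefSeq accession. lmFit and eBayes ran over 6 arrays and 19118 genes, with Benjamini-Hochberg adjustment and a threshold of 0.05; ± values are SE with 2 arrays per genotype, and that number of arrays limits the precision. The fit was tested on simulated data. Array values are given, by rule, for the 5 members that were highest and the 5 that were lowest among those called in each comparison (where none passed, the 3 of smallest p each way), the catalytic subunits and their interferon-inducible counterparts, and members whose probes passed in opposite directions; of the partner lists, the 2 called genes of smallest p each way are named. Array values of Psma8, Psmb4 and the dimmer probe of Psme2 were added after they were seen. Members and lists were chosen with earlier results of these data known. The alternatives were processed signals, 75th percentile scaling, no background correction, the authors' table, the mean over probes, other filters on dim probes, trended variance, the replicate block and leaving out each array. Whether replicate numbers pair the arrays was checked by correlating deviations from the genotype means, which gave -0.156, -0.0743 and 0.197, so the numbers were not taken as pairs. An item withheld for evaluation is not reported here.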

Additional observations from a re-analysis of the deposited data

Results flagged for a closer look

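Psmc3, an ATPase of the 19S base, differed in direction between the knockouts: both ATF6aKO arrays lay above both WT arrays and both ATF6bKO arrays lay below them. The log2 difference of ATF6aKO minus ATF6bKO was 0.96 ± 0.18 (limma, adjusted p = 0.625, unadjusted p = 0.000874), higher on 2 of 2 ATF6aKO arrays. The second probe of the gene gave -0.21 for the same difference, with both knockouts below WT.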

How the results depend on the processing

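All 20 members called in ATF6aKO and all 16 called in ATF6bKO against WT kept their direction under the 14 alternatives other than the authors' deposited table, and 13 and 5 of them stayed past the threshold under every one. The authors' deposited table had 37 members higher and 1 lower than WT in each knockout, with medians of 3.5 for ATF6aKO and 3.8 for ATF6bKO (0.85 over all genes in each), and a median of 0.0 for ATF6aKO minus ATF6bKO. Over all 19118 genes that table had 6890 higher and 2824 lower in ATF6aKO, and 6962 higher and 2930 lower in ATF6bKO. Reversed there in ATF6aKO were Psmb7 (1.75), Psmb8 (1.1), Psmb10 (1.55), Psmc4 (3.0), Psmd8 (2.6), Psmd9 (0.1), Psmd11 (1.74), Psmd13 (2.12) and Psme3ip1 (0.8). Of these Psmb8, Psmb10, Psmd9 and Psme3ip1 did not pass the threshold there. Reversed there in ATF6bKO were Psmb7 (1.7), Psmb10 (1.8), Psmc3 (3.9), Psmc4 (3.8), Psmd8 (3.4), Psmd11 (2.07), Psmd13 (2.34), Psme3 (-3.1) and Psmg4 (2.65). Of these only Psmb10 did not pass the threshold there. That table follows another channel of the knockout arrays; the cause of the difference was not tested. With 75th percentile scaling after normexp the members' median in ATF6bKO was 0.20 (0.16 over all genes), and with processed signals the median of ATF6aKO minus ATF6bKO was 0.47; the cause was not tested. Leaving out 1 array gave 2 to 8 members higher and 5 to 11 lower in ATF6bKO, and 9 to 15 higher and 6 to 9 lower in ATF6aKO. Over all genes, the calls in ATF6aKO fell to 4680 without ATF6aKO replicate 2, and those in ATF6bKO to 3079 without ATF6bKO replicate 1 and 3794 without ATF6bKO replicate 2. ATF6aKO against ATF6bKO had 8 genes past the threshold without ATF6aKO replicate 2, and none with the knockout arrays alone (1625 at an unadjusted p under 0.05). With the replicate block 11 members were higher and 7 lower in ATF6aKO, 5 higher and 7 lower in ATF6bKO, and none differed between the knockouts; with the ATF6aKO numbers crossed, chosen after seeing the data, no gene did (1530 at an unadjusted p under 0.05). Psmg3 and Psmg4 were not well above background on either ATF6bKO array, so their differences are given as bounds. For Psmg4 the bound equals the plain difference of 1.48-fold.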
